A study of Mus musculus with 8 samples.

Results

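The 10 genes described here encode transcription factors that set up and hold the fat cell state: Pparg, Cebpa, Cebpb, Cebpd, Rxra, Nr1h3, Srebf1, Klf15, Ebf1 and Mlxipl. They were read from the probe sets whose only annotated gene symbol is one of these 10, which gave 15 of 22626 tested probe sets and 10 of 12393 genes. A probe set is a group of short array probes that reads the same transcript or set of transcripts. Of the 10 genes, 6 had 1 probe set, 3 had 2 and 1, Ebf1, had 3. Deposited detection calls put 12 of the 15 probe sets as present on all 8 arrays. The single Mlxipl probe set was called present on 0 arrays, the second Rxra probe set was called present on 3 of 4 sXBP1 arrays, and the second Cebpd probe set has no call in the authors' deposited table.

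Total RNA came from cultured mouse adipocytes in 2 groups of 4 samples, 1 Affymetrix array each. Cells of the first group were infected with adenovirus carrying sXBP1, the spliced and active form of the transcription factor XBP1, and those of the second with adenovirus carrying green fluorescent protein (GFP) alone. The virus was given at day 6 to 8 of differentiation and the cells were harvested 4 to 6 days later, in both groups. The cell type label is F442A, a preadipocyte line that stores fat once differentiated, while the cell line label is 3T3L1 and the strain label Swiss. Nothing in the labels says that the 4 samples of a group were separate cultures, and the p-values below therefore rest on array-to-array spread that could be purely technical. The design asks which transcripts differ when adipocytes are given spliced XBP1.

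Fat cell differentiation runs as a cascade. Cebpb and Cebpd act early and lead to Cebpa and Pparg, which then sustain each other and switch on the genes of mature fat cells. PPARG binds DNA together with RXRA, and KLF15 and EBF1 act on the same program. SREBF1, MLXIPL (ChREBP) and NR1H3 (LXR alpha) couple sugar, insulin and sterol supply to fat synthesis. XBP1 itself is made active by IRE1 during endoplasmic reticulum stress and has been reported to act between Cebpb and Cebpa in cultured preadipocytes.

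In sXBP1 adipocytes, Cebpa, Klf15, Srebf1, Pparg and Nr1h3 fell by the brightest probe set of each gene, and Cebpd, an early C/EBP factor, rose. By the same probe sets Cebpb, Rxra, Ebf1 and Mlxipl did not pass the threshold (limma with Benjamini-Hochberg adjustment over all tested probe sets, threshold 0.05). For Ebf1 the other 2 probe sets did fall. Among the 15 probe sets, 7 fell, 1 rose and 7 did not pass. Over all tested probe sets, 13.0% were called lower and 11.5% higher in sXBP1 samples. Over all genes by brightest probe set, 14.4% were lower and 12.9% higher, against 5 lower and 1 higher of the 10 factors. The factors were chosen with earlier results of these data known. On the deposited signals of those probe sets, the groups did not overlap for 6 factors lower in sXBP1 samples and 1 higher, against 17.8% and 9.44% of all genes. Among the 12571 probe sets called present on all 8 arrays, 20.9% were lower and 18.1% were higher. The median log2 change was -0.36 for the 10 factors and -0.01 for all genes. The balance over all probe sets depends on scaling: 14.1% were lower and 7.07% higher with values as deposited, and 9.68% and 14.9% after median centring. The direction of every probe set that passed was the same under both of these scalings.

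**Figure D1:**
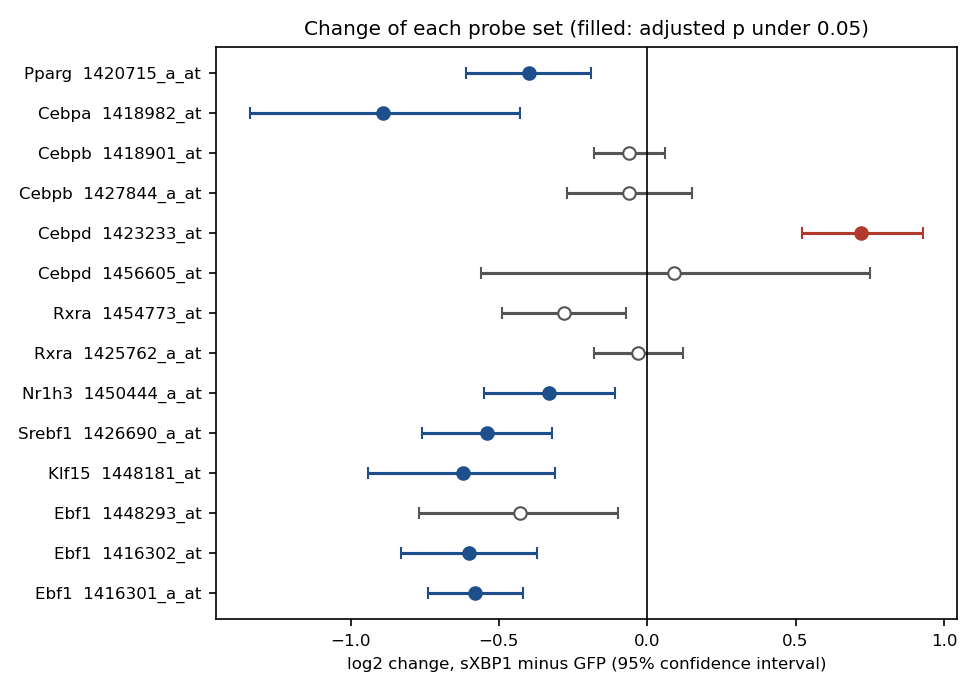
Log2 change, sXBP1 minus GFP, with its 95% confidence interval for 14 probe sets of 9 genes. Filled symbols passed the adjusted threshold, blue for lower and red for higher. Mlxipl is left out because it was called present on 0 arrays. The 7 probe sets that fell lie between -0.89 and -0.33, and the brighter Cebpd probe set stands alone on the right at 0.72.

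Motif matches are given as a description, and whether they bear on the changes was not tested. The stretches upstream of the start sites of 3 of the factors that fell are shown. They are Cebpa, the factor with the largest fall, Klf15, the factor with the most motif matches, and the most downstream of 3 annotated starts of Pparg, the receptor on which the fat cell program rests. Sequences come from RefSeq on GRCm38.p6, are given 5′ to 3′ on the gene's strand and run from position -250 to -1 before the start. Capitals mark every match on either strand to one of 6 motifs: the endoplasmic reticulum stress element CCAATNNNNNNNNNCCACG, the unfolded protein response element core GACGTGG, the core CCACG, the CCAAT box CCAAT, the C/EBP palindrome TTGCGCAA and the E-box CACGTG. The letters CCACG and CCAAT are also parts of the first motif, and CCACG overlaps the E-box where both occur.
Cebpa, chr7:35119043-35119292, plus strand: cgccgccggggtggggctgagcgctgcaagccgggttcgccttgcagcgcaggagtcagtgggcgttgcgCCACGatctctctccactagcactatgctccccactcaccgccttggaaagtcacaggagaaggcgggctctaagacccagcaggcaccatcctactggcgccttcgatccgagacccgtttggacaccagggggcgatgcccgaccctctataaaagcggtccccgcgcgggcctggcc
Klf15, chr6:90462326-90462575, plus strand: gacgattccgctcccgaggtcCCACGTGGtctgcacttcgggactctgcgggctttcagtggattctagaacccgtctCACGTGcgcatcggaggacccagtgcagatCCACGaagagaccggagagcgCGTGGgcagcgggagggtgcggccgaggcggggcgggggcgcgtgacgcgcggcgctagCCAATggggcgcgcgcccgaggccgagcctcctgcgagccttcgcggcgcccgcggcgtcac
Pparg, chr6:115421816-115422065, plus strand: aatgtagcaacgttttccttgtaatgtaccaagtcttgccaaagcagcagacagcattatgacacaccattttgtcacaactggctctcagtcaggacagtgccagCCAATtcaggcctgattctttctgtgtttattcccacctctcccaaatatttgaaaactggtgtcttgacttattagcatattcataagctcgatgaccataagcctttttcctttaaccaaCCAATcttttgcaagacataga

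The Cebpa stretch held 1 match, a CCACG core at -180 to -176. The Klf15 stretch held CCACG cores on both strands, a CCAAT box at -62 to -58 and E-boxes at -228 to -223 and -172 to -167. The Pparg stretch held 2 CCAAT boxes, at -144 to -140 and -22 to -18. The window of the most upstream Pparg start, not shown, held CCACG cores at -243 to -239, -231 to -227 and -9 to -5. Over the 17 start windows of the 9 genes found in the RefSeq table, each from 250 bases before to 50 after the start, neither XBP1 element, the full stress element or the GACGTGG core, was found, and the palindrome was not found either. These 3 motifs occur in 0.119%, 2.42% and 0.183% of the 32851 windows in the table. The CCACG core was in 8 of the 17 windows, against 32.8% of all windows, and its matches fell in 7 genes: Cebpa, Cebpb, Ebf1, Klf15, Mlxipl, Pparg and Rxra. The CCAAT box was in 6 of 17 windows (37.4% of all) and the E-box in 2 of 17 (7.15% of all). The CCACG core was present upstream of Cebpb, which did not pass the test, as well as upstream of factors that fell. Cebpd was not searched.

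Cebpa, which encodes the factor that keeps adipocytes differentiated and insulin sensitive, had the largest fall. Its signals were 1626.4, 1548.3, 874.6 and 876.0 on sXBP1 arrays 1 to 4, against 2165.6, 2437.5, 2233.5 and 2243.5 on GFP arrays 1 to 4. The groups did not overlap, and the sXBP1 arrays fell into 2 levels, with arrays 3 and 4 far below arrays 1 and 2. The log2 change was -0.89 ± 0.21 (SE; limma adjusted p = 0.0098), a 1.85-fold fall. A more negative change was measured for 0.8% of all genes. Without sXBP1 replicates 3 and 4 the change was -0.44 (limma adjusted p = 0.000644), and without sXBP1 replicates 1 and 2 it was -1.33 (limma adjusted p = 8.02e-06). The fall passed on either pair of sXBP1 arrays, while its log2 size differed widely, at -0.44 on arrays 1 and 2 and -1.33 on arrays 3 and 4.

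Cebpb and Cebpd, the early members of the same family, gave other values than Cebpa. The brightest Cebpb probe set had signals of 3893.5, 4197.5, 3542.5 and 4430.5 on sXBP1 arrays, against 4169.6, 4258.0, 4180.1 and 4404.0 on GFP arrays. The groups overlapped, and the log2 change was -0.06 with a 95% confidence interval of -0.18 to 0.06 (limma adjusted p = 0.491), above the interval of Cebpa, which was -1.34 to -0.43. The second Cebpb probe set changed by -0.06 too (interval -0.27 to 0.15, limma adjusted p = 0.71), and both values turned to 0.06 and 0.03 after median centring.

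Cebpd, a factor induced early in adipogenesis and by inflammatory cytokines, was the only one of the 10 genes to rise. Its brighter probe set gave 1526.8, 1543.0, 1751.5 and 2269.7 on sXBP1 arrays, against 920.0, 1254.1, 1015.0 and 1195.6 on GFP arrays. Every sXBP1 array lay above every GFP array. The log2 change was 0.72 ± 0.09 (SE; limma adjusted p = 0.0003), a 1.65-fold rise. The second probe set was dim, at 18.6 to 73.0 on sXBP1 arrays and 41.4 to 60.5 on GFP arrays, and changed by 0.09 with an interval of -0.56 to 0.75 (limma adjusted p = 0.871). The changes of the 2 probe sets differed by 0.63, with a two-sided exact permutation p of 0.0571 (0.214 adjusted over the 5 pairs of probe sets compared, where 0.0286 is the smallest unadjusted p that 4 against 4 arrays allow). With the mean of both probe sets Cebpd changed by 0.41 and did not pass (limma adjusted p = 0.105).

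**Figure D2:**
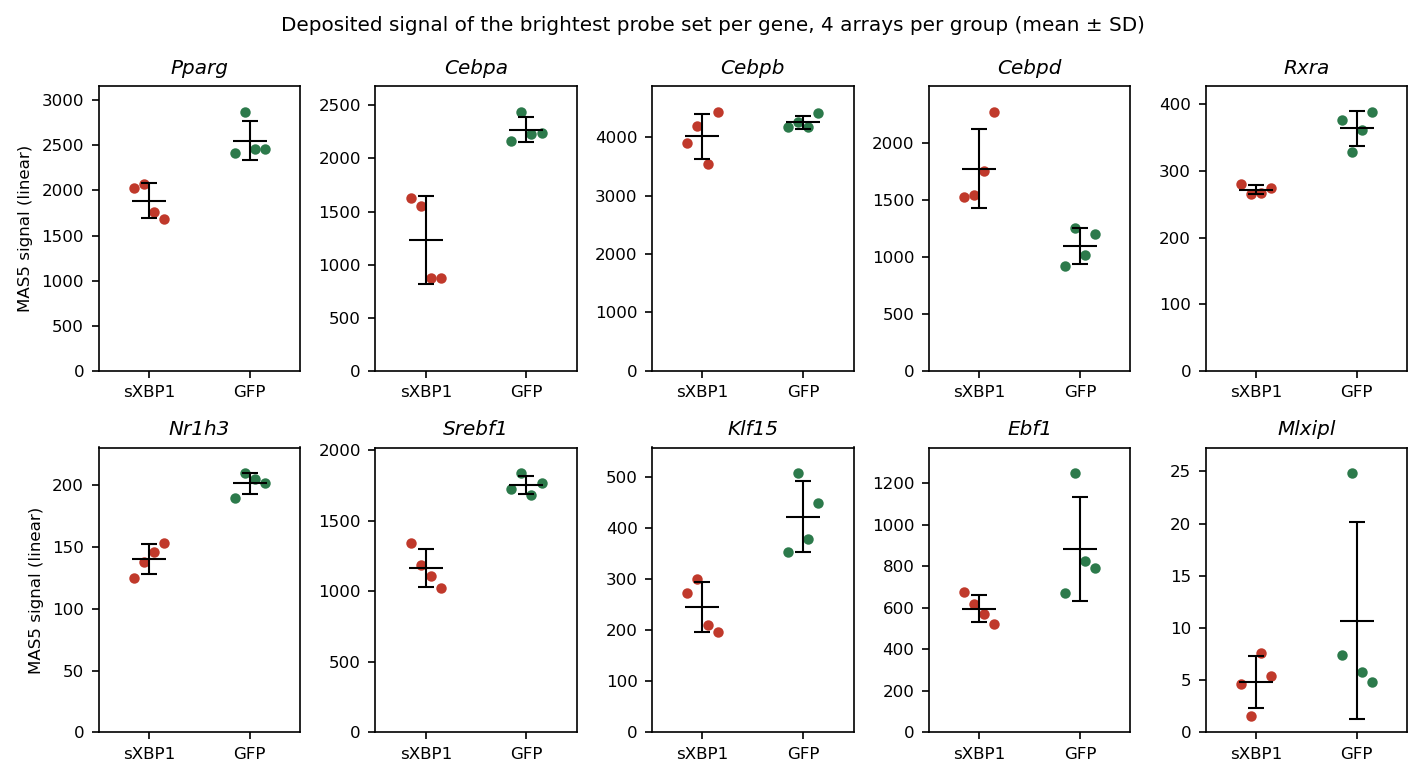
Deposited linear signal of the brightest probe set of each gene, 1 panel per gene with its own axis from 0. Points are arrays, 4 per group, and the bar and whiskers are mean ± SD. The groups do not overlap for Pparg, Cebpa, Cebpd, Rxra, Nr1h3, Srebf1 and Klf15, and Mlxipl lies at 24.8 or lower on every array.

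Pparg, the nuclear receptor without which fat cells do not form, fell less than Cebpa. Its probe set gave 2029.5, 2074.6, 1764.4 and 1684.8 on sXBP1 arrays, against 2414.8, 2870.9, 2462.9 and 2463.2 on GFP arrays, and the groups did not overlap. The log2 change was -0.40 ± 0.09 (SE; limma adjusted p = 0.0107), a 1.32-fold fall. It was -0.24 without sXBP1 replicates 3 and 4 (limma adjusted p = 0.017). Which of the Pparg isoforms this probe set reads was not analysed here.

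Rxra, the partner of PPARG and of LXR on DNA, did not pass on either probe set. The brighter one gave 280.2, 265.7, 267.2 and 274.1 on sXBP1 arrays, against 377.0, 328.5, 360.7 and 388.5 on GFP arrays. These deposited signals did not overlap, but after quantile normalization GFP array 2 lay within the sXBP1 range. The log2 change was -0.28 ± 0.10 (SE; limma adjusted p = 0.055), and it passed with values as deposited (-0.40, limma adjusted p = 0.00863) and without GFP replicate 2 (-0.36, limma adjusted p = 0.0124). It also passed when dim probe sets were left out before the adjustment, by detection call or by mean signal (limma adjusted p = 0.0299 and 0.0266). The other probe set changed by -0.03, with an interval of -0.18 to 0.12 (limma adjusted p = 0.818). The changes of the 2 Rxra probe sets were not shown to differ (difference -0.25, two-sided exact permutation p = 0.0857, 0.214 adjusted over 5 pairs).

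Klf15, a zinc finger factor of differentiated adipocytes that switches on the glucose transporter Slc2a4, had the second largest fall. Its signals were 273.7, 301.1, 211.4 and 197.3 on sXBP1 arrays, against 353.8, 507.4, 379.6 and 449.6 on GFP arrays. The groups did not overlap, and the log2 change was -0.62 ± 0.14 (SE; limma adjusted p = 0.00814), a 1.54-fold fall. Without sXBP1 replicates 3 and 4 it was -0.39 (limma adjusted p = 0.0323).

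Ebf1, an early B cell factor that acts upstream of Pparg and Cebpa in adipogenesis, fell on 2 of 3 probe sets. The one with the smallest standard error gave 416.7, 490.1, 398.8 and 439.0 on sXBP1 arrays, against 617.4, 763.3, 710.8 and 722.9 on GFP arrays. It fell by 0.58 ± 0.07 on the log2 scale (SE; limma adjusted p = 0.000202), with no overlap between groups. The other one that passed fell by 0.60 ± 0.10 (SE; limma adjusted p = 0.00171), also with no overlap. The brightest gave 676.2, 616.6, 572.4 and 522.7 on sXBP1 arrays, against 670.1, 1248.2, 823.8 and 794.5 on GFP arrays, so that GFP array 2 stood high and GFP array 1 lay within the sXBP1 range. Its log2 change was -0.43 ± 0.15 (SE; limma adjusted p = 0.0627). It passed without GFP replicate 1 (-0.52, limma adjusted p = 0.0413), without sXBP1 replicate 1 (-0.50, limma adjusted p = 0.0491), with values as deposited (-0.52, limma adjusted p = 0.0401) and with either filter on dim probe sets (limma adjusted p = 0.0301 and 0.0304). Its change differed from those of the other probe sets by 0.16 and 0.15 (two-sided exact permutation p = 0.314 and 0.371, 0.464 for both adjusted over 5 pairs). The mean of the 3 probe sets passed at -0.54 (limma adjusted p = 0.00115).

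Srebf1, which drives genes of fatty acid synthesis in response to insulin and itself is a target of LXR, fell in every sXBP1 sample. Its signals were 1340.8, 1185.1, 1108.7 and 1021.6 on sXBP1 arrays, against 1728.5, 1837.1, 1685.9 and 1769.8 on GFP arrays, with no overlap. The log2 change was -0.54 ± 0.10 (SE; limma adjusted p = 0.00242), a 1.45-fold fall.

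Nr1h3, which encodes the oxysterol receptor LXR alpha, was the dimmest factor to fall and its call was the least stable. Signals were 124.6, 138.1, 145.8 and 152.9 on sXBP1 arrays, against 189.3, 209.5, 205.3 and 201.4 on GFP arrays, with no overlap. The log2 change was -0.33 ± 0.10 (SE; limma adjusted p = 0.0306), a 1.26-fold fall. With 1 replicate left out it kept its direction, at -0.39 to -0.28, but passed only without sXBP1 replicate 3. Without each of the other 7 samples the limma adjusted p was 0.059 to 0.0874. With the replicate number as a block it was 0.0554.

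Mlxipl, which encodes the glucose-sensing factor ChREBP, was called present on 0 of 8 arrays. Its signals were 4.6, 1.6, 7.6 and 5.4 on sXBP1 arrays, against 7.4, 24.8, 5.8 and 4.8 on GFP arrays. No fold is given, since a probe set called present in neither group does not show a level.

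The 4 sXBP1 arrays differed among themselves. Of the 7 probe sets that fell, 5 were lower on both of arrays 3 and 4 than on arrays 1 and 2, an order also seen in 48.8% of the 2942 probe sets called lower. For Cebpa, the normalized log2 difference from the GFP mean was -0.39, -0.49, -1.23 and -1.44 on arrays 1 to 4. For Srebf1 it was -0.29, -0.49, -0.54 and -0.85, and for Klf15 it was -0.45, -0.33, -0.71 and -1.0. The rise of Cebpd had the same order in size, at 0.58, 0.56, 0.79 and 0.97. Nr1h3 did not share it, at -0.47, -0.36, -0.16 and -0.33.

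**Figure D3:**
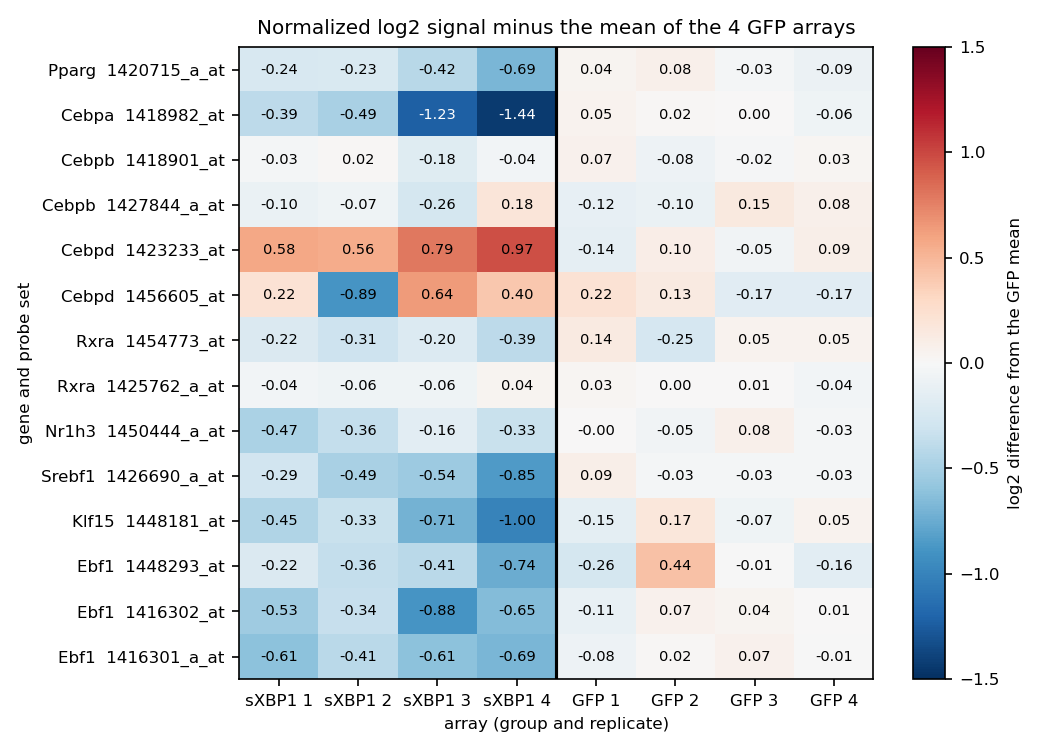
Quantile-normalized log2 signal minus the mean of the 4 GFP arrays, for 14 probe sets (rows) and 8 arrays (columns, sXBP1 left of GFP). Blue is below and red above the GFP mean. Cebpa is darkest on sXBP1 arrays 3 and 4, at -1.23 and -1.44, and GFP columns stay within 0.44 of their mean.

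Other values moved with the groups. Median signal was 128 ± 9.14 on sXBP1 and 143 ± 8.53 on GFP arrays (SD, n = 4 each; two-sided exact permutation p = 0.0857). RNA integrity, read as the signal of Gapdh at its 3′ end over that at its 5′ end, stood at 0.783 ± 0.0129 in sXBP1 and 0.816 ± 0.00451 in GFP samples (SD, n = 4 each; two-sided exact permutation p = 0.0286). The same ratio for actin was 1.38 ± 0.0474 in sXBP1 and 1.42 ± 0.0191 in GFP samples (SD, n = 4 each; two-sided exact permutation p = 0.143). The marker counts that follow stand beside 14.4% lower and 12.9% higher over all genes by brightest probe set. Over the 12571 probe sets detected throughout, the shares were 20.9% lower and 18.1% higher. Of 10 macrophage markers, 4 rose and 0 fell, and their summed signal was 2176 to 4278 on sXBP1 arrays, highest on arrays 3 and 4, against 798 to 953 on GFP arrays. The leukocyte markers Ptprc, Itgam, Laptm5 and Fcer1g among them were called present on 0 arrays or not listed. Of 10 measured preadipocyte and fibroblast markers, 0 rose and 6 fell, with summed signals of 60026 to 63438 on sXBP1 arrays and 64988 to 73120 on GFP arrays. Of 7 measured adipocyte markers, each with a present call on some but not always every array, 0 rose and 6 fell. Their sums were 32323 to 39228 and 41543 to 46277 in the same order. The part of these in the changes of the factors was not tested, and in such bulk RNA fewer cells of a type and less RNA per cell cannot be told apart. Xbp1 itself changed by -0.02 to 0.08 on its 4 probe sets and passed on 0 of them (limma adjusted p = 0.271 to 0.844). Whether any of the 4 reads the sequence carried by the virus was not examined, so they do not check the labels.

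Among 31 other measured activators and cofactors of adipogenesis, 14 fell, 1 rose and 16 did not pass, with a median log2 change of -0.31. One of the 14, Ppargc1a, was read by a brightest probe set called present on 0 arrays, so no level is shown for it (chosen after its values were seen). The background for this and the following lists is the 14.4% lower and 12.9% higher given above for genes by brightest probe set. It takes in genes without detection, whereas each list holds 0 to 3 genes called present on 0 arrays or not listed. A closer background for detected genes is that of the 12571 probe sets detected throughout. There the shares were larger, at 20.9% lower and 18.1% higher, counted by probe set and not by gene. Ppargc1b, a coactivator of nuclear receptors in mitochondrial gene expression, was at 148 ± 31.0 in sXBP1 and 429 ± 39.0 in GFP samples (SD, n = 4 each) (log2 change -1.32 ± 0.13 SE, limma adjusted p = 5.17e-05). Only 1 of the 4 sXBP1 arrays had a present call for Ppargc1b. The nuclear factor I genes Nfib and Nfia fell by 0.80 ± 0.08 and 0.83 ± 0.10, Nfib on 2 of 4 probe sets and Nfia on 1 of 3. Of the relatives of Ebf1, Ebf2 fell by 0.94 ± 0.13 and Ebf3 by 0.57 ± 0.13, each on 3 of 3 probe sets (chosen after their values were seen). Rxrb, a relative of Rxra, fell by 0.49 ± 0.09 (also chosen afterwards). The gene that rose was Mlx, the DNA-binding partner of ChREBP, at 0.35 ± 0.07 and 0.34 ± 0.06 on its 2 probe sets (also chosen afterwards).

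Factors and signals that restrain adipogenesis did not rise as a list: of 26 measured, 9 fell, 1 rose and 16 did not pass, with a median of -0.13. Id3, an inhibitor of DNA binding by helix-loop-helix factors, was the gene that rose, at 734 ± 197.2 in sXBP1 and 332 ± 29.3 in GFP samples (SD, n = 4 each; log2 change 1.18 ± 0.14 SE, limma adjusted p = 0.00015). Dlk1, the preadipocyte surface protein Pref-1, fell by 0.78 ± 0.10 with signals of 4267 ± 496.8 in sXBP1 and 7424 ± 881.9 in GFP samples. Sirt1, a deacetylase that docks on PPARG, fell by 0.80 ± 0.13. Without sXBP1 replicates 3 and 4, 5 of these genes fell.

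Genes known as targets of the factors were counted the same way. Of 20 measured PPARG targets, 12 fell, 1 rose and 7 did not pass (median -0.45). The pyruvate dehydrogenase kinase Pdk4 was at 376 ± 59.2 in sXBP1 and 1109 ± 163.9 in GFP samples (log2 change -1.44 ± 0.10 SE, limma adjusted p = 4.58e-06). Pck1, the glyceroneogenic enzyme, fell by 1.31 ± 0.11 and Pnpla2, adipose triglyceride lipase, fell by 0.87 ± 0.10, each on 1 of 2 probe sets. Angptl4 was the exception, with a rise of 0.30 ± 0.04 on 1 of 2 probe sets (chosen after its values were seen). Among those that did not pass, Fabp4 had signals of 19654 ± 1057.5 in sXBP1 and 19472 ± 900.1 in GFP samples and Lpl had 17418 ± 951.9 and 17266 ± 568.4 in the same order (SD, n = 4 each), by brightest probe sets near the top of the range of the arrays. Dimmer probe sets gave other calls: 1 of the other 3 of Fabp4 fell, by 0.50 ± 0.13 (SE; limma adjusted p = 0.0184), and the other one of Lpl fell by 0.38 ± 0.08 (SE; limma adjusted p = 0.0047). Both genes were chosen after their values were seen.

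Of 10 measured C/EBP alpha targets, 7 fell, 0 rose and 3 did not pass (median -0.66), and 4 of the 10 are also in the PPARG list. The insulin-responsive glucose transporter Slc2a4, also a target of KLF15, was at 643 ± 137.1 in sXBP1 and 1392 ± 164.2 in GFP samples (log2 change -1.04 ± 0.14 SE, limma adjusted p = 0.00032) and fell on both probe sets. Cidec, a lipid droplet protein, fell by 0.93 ± 0.13. The genes that did not pass by brightest probe set were Insr, Scd1 and Fabp4, named here for that reason. For Scd1 that probe set was near the top of the range, at 17531 in sXBP1 and 17121 in GFP samples. Its other probe set fell by 0.46 ± 0.14 (SE; limma adjusted p = 0.038). Insr was dim, at 32.6 ± 9.04 in sXBP1 and 35.8 ± 7.09 in GFP samples, and was called present on 1 sXBP1 and 0 GFP arrays.

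Of 18 measured SREBP1 and ChREBP targets, 10 fell, 0 rose and 8 did not pass (median -0.33). Thrsp, a lipogenic gene driven by both factors, was at 31.0 ± 5.98 in sXBP1 and 119 ± 16.5 in GFP samples and fell by 1.42 ± 0.15, with detection on 2 of 4 sXBP1 arrays. Fasn, fatty acid synthase, fell by 0.87 ± 0.13 and Acss2, which makes acetyl-CoA from acetate, fell by 0.88 ± 0.12. Of 9 LXR targets, 6 fell, 0 rose and 3 did not pass (median -0.33). One of the 6, Apoe, was called present on 0 arrays, so no level is shown for it (chosen after its values were seen), and with 1 replicate left out 4 to 5 of the list fell. The cholesterol exporter Abca1 fell by 0.58 ± 0.04 on 3 of 3 probe sets, with signals of 2795 ± 193.5 in sXBP1 and 4280 ± 322.2 in GFP samples. Mylip and Lpcat3 fell by 0.41 ± 0.07 and 0.30 ± 0.06.

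The acute-phase targets of C/EBP beta and delta went the other way. By brightest probe set, of 12 measured, 9 rose, 0 fell and 3 did not pass, with a median of 0.93. Cp, ceruloplasmin, was among the 3 (chosen after its values were seen). The brightest of its 7 probe sets changed by -0.03 ± 0.15 (SE; limma adjusted p = 0.922). Its dimmer probe sets all fell, with log2 changes of -0.99 to -0.52 (limma adjusted p = 1.25e-05 to 0.0168). This list too was chosen with earlier results of these data known. The chemokine Ccl2 was at 865 ± 56.2 in sXBP1 and 241 ± 30.4 in GFP samples (log2 change 1.89 ± 0.07 SE, limma adjusted p = 3.74e-07). Lcn2, lipocalin 2, rose by 0.93 ± 0.08 and Orm2, an orosomucoid, by 1.80 ± 0.21. These genes also answer to NF-kB and STAT3, so the list is not specific to the C/EBP factors. The macrophage marker sums given above moved in the same direction, and their part was not tested.

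**Figure D4:**
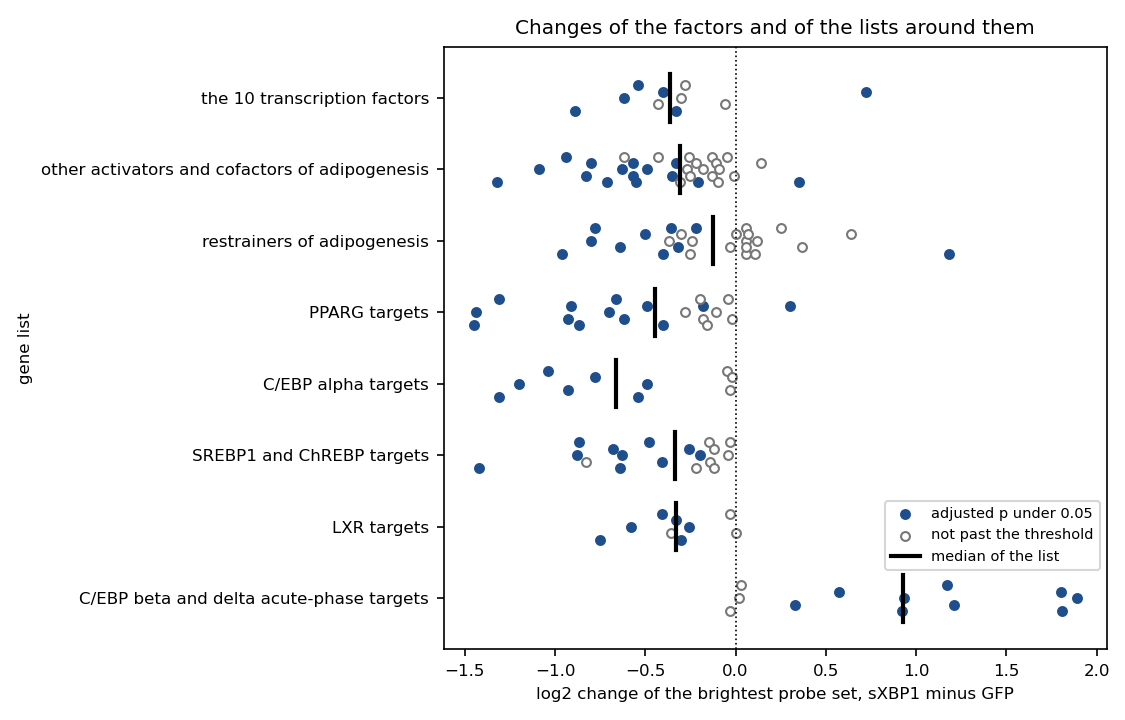
Log2 change of the brightest probe set of each gene, sXBP1 minus GFP, for the 10 factors and 7 lists of genes around them. Filled points passed the adjusted threshold, open points did not, and black bars are list medians. Medians run from -0.66 for C/EBP alpha targets to -0.13 for restrainers, with the acute-phase list apart at 0.93. The Mlxipl point belongs to a probe set called present on 0 arrays.

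The 5 genes whose profile over the 8 arrays was closest to that of Pparg, among 7202 genes called present on all 8 arrays, were Abtb1, Pigp, Col5a1, Nsdhl and Cpq. Likeness was the root mean square difference of the normalized log2 values, each centred on its GFP mean. It was 0.0415 to 0.0608 for these 5 and 0.322 for the median gene. Their log2 changes were -0.37 to -0.43, close to the -0.40 of Pparg by construction. None of the other 9 factors was among them. Mlxipl, without present calls, was not compared, and factors with another size of change were distant by construction.

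In the authors' deposited table, 14 of the 15 probe sets are listed, and 14 have the same direction as in the fit. That table and the fit rest on the same signals, so the shared direction is no independent check. The table gives Cebpa a fold of -1.84, negative because GFP is higher, Pparg a fold of -1.35 and the brighter Cebpd probe set a fold of 1.62, on the linear signals. Further from the fit were Klf15 (-1.72, fitted 1.54-fold fall), Nr1h3 (-1.43, fitted 1.26) and the brighter Rxra probe set (-1.34, fitted 1.22).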

How the data were processed

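The authors deposited 1 linear intensity for each probe set and array, which the submitters' processing notes credit to MAS5. Its scaling target and version are not given in the sources used. Detection calls, a fold and a score of the comparison come from the authors' deposited table, whose filter is not given either. The 64 control probe sets were left out. Symbols came from the platform annotation, which gave 1 symbol to 20380 of 22626 probe sets. Signals were transformed as log2(signal + 16), quantile normalized and fitted under R 4.3.3 with the lmFit and eBayes functions of limma 3.58.1 (with a trend, two-sided; Benjamini-Hochberg over all tested probe sets, threshold 0.05). Changes are sXBP1 minus GFP on the log2(signal + 16) scale, which understates those of dim genes. Lists were counted by each gene's brightest probe set, without a set test. Genes that the lists fixed but that are not named in the annotation used were not analysed here. Named genes were every member probe set, the 3 genes of smallest p in each list, Xbp1 and the 5 genes most like Pparg. Ebf2, Ebf3, Rxrb, Mlx, Ppargc1a, Angptl4, Fabp4, Lpl, Insr, Scd1, Apoe and Cp were named after their values were seen. Members and lists were chosen with earlier results of these data known. The fit was tested on simulated data in which 200 of 22626 probe sets were changed, far fewer than were called here. It recovered 79.0% of log2 changes of 1 and 34.0% of the smaller changes simulated, and 2.59% of its calls were false. A probe set that did not pass may therefore still have changed by a small amount. Same-numbered samples were checked for pairing: their deviations correlated at 0.1209, 0.0269, -0.0895 and 0.1067, so the numbers were not used as pairs. Single values were compared with exact permutation tests (scipy 1.17.1), and figures were drawn with matplotlib 3.10.9. The number of arrays, 4 per group, limits the precision.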

Additional observations from a re-analysis of the deposited data

Results flagged for a closer look

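On the GFP arrays, the Srebf1 probe set had 1 sample away from the others: GFP array 1 stood 0.09 above the group mean on the normalized log2 scale and the other 3 arrays each stood at -0.03. The gap to the nearest array was 0.966 of the group's range, past Dixon's 95% critical value for 4 samples. Of 30 groups of 4 examined, 1 was past it, and chance gives about 1 in 20.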

How the results depend on the processing

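Of the 10 factors, 1 was called higher and 4 to 7 lower under every alternative run, with 1 exception: with the mean of all probe sets of a gene, 0 were higher, since Cebpd did not pass. With values as deposited 9 probe sets and 7 genes fell, Rxra and Ebf1 by their brightest probe set included, as with either filter on dim probe sets, and 1600 of all probe sets were called higher, in place of 2601. The Cebpb changes turned to 0.06 and 0.03 after median centring, and the second Cebpb probe set ranged over -0.14 to 0.00 with 1 replicate left out, 0.00 being the value without sXBP1 replicate 3. The second Cebpd probe set ranged over -0.09 to 0.42 with 1 replicate left out, at -0.09 without sXBP1 replicate 3, -0.01 without replicate 4 and -0.33 without both. None of these reversed values was past the threshold; the cause was not tested. Over all settings the number that fell was 12 to 16 activators, 5 to 10 restrainers, 11 to 16 PPARG targets, 6 to 8 C/EBP alpha targets, 7 to 13 SREBP1 and ChREBP targets and 4 to 6 LXR targets, and 8 to 9 acute-phase genes rose. Activators that rose numbered 0 on unscaled deposited values and 2 after median centring, with either filter on dim probe sets and without sXBP1 replicates 1 and 2, and 1 to 2 with 1 replicate left out. Restrainers that rose numbered 2 after median centring and without sXBP1 replicates 1 and 2, and those that fell numbered 5 without sXBP1 replicates 3 and 4. With the mean of all probe sets 0 PPARG targets rose and 1 acute-phase gene fell. With the replicate number as a block, 2427 probe sets were higher and 2656 lower, Nr1h3 did not pass (-0.33, limma adjusted p = 0.0554) and the brightest Ebf1 probe set passed (limma adjusted p = 0.0433); no other member's call changed, and samples did not all correlate best with their own number. The median change of all probe sets was -0.02, -0.07 as deposited and 0.07 after median centring. Dim signal limits Mlxipl and the second Cebpd probe set.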
